A study of Mus musculus with 8 samples.

Results

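Chromatin accessibility in the STAT3 knockout melanoma line 112 was compared with that in the wild-type melanoma line 73, by ATAC-seq, an assay that reads open chromatin from the places where Tn5 transposase cuts. Every region of the shared count table that passed a count filter was taken, which left 134068 of 148664 regions, and the 2 libraries of line 112 were set against the 2 libraries of line 73. Both are mouse melanoma lines, derived from lymph node suspensions of animals that had developed cutaneous melanoma at an age of around 25 to 30 weeks. Line 112 carries the Stat3Δ genotype, labelled STAT3 knockout, and line 73 the Stat3fl genotype, labelled wild type. The melanoma driver alleles, the Cre used and the strain are not given in the sources used here. The titles give a number after the letter p, which is 18 for line 112 and 68 for line 73, and its meaning is not given. The growth protocol calls each line a pool, and the sample labels call it a clone. Each genotype has 1 line in this comparison, so the genotype, the line and the p number cannot be told apart, and a p-value tests these lines and not STAT3. Libraries are named as biological replicates, but whether they came from separate cultures is not given, so p-values measure the spread between these libraries only. Knockout line 113 and wild-type line 119, with 2 libraries each, share no library with lines 112 and 73 and are used for reference.

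STAT3 is a transcription factor that cytokine and growth factor receptors activate through JAK kinases, and SOCS3 is a feedback inhibitor of that signal. MITF is the main transcription factor of melanocytes. It is switched on by SOX10 and PAX3 from a melanocyte promoter, the 3′-most start of the gene, and it binds E-boxes at the genes of melanin synthesis. Melanoma cells are known to move between a pigmented state high in these factors and a dedifferentiated state with mesenchymal, AP-1 and TEAD target genes.

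The promoters on which the comparison turns are shown first, each as the 250 bases before a gene start from RefSeq (GRCm38.p6), on the gene's strand and 5′ to 3′. In Tyr, Dct and Mlph, genes of melanin synthesis and melanosome transport, capitals mark the MITF E-box (TCATGTG or TCACGTG on either strand). In Ankrd1, a target of YAP and TEAD, they mark the TEAD letters GGAATG. In Socs3 they mark the STAT letters TTCNNNGAA. The 3′-most Mitf start holds none of the 10 motifs searched in this window, which says only that these letters are not there.
Tyr chr7:87493513-87493762 (minus strand): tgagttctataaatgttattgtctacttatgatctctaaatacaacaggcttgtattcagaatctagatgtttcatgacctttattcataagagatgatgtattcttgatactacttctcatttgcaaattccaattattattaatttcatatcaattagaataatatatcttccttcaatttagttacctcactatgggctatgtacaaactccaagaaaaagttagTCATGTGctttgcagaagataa
Dct chr14:118052247-118052496 (minus strand): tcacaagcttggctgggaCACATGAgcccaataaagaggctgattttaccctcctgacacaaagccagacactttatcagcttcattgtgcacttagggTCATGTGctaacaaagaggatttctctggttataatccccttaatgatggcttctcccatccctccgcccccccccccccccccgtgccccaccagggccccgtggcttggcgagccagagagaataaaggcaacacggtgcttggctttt
Mlph chr1:90914850-90915099 (plus strand): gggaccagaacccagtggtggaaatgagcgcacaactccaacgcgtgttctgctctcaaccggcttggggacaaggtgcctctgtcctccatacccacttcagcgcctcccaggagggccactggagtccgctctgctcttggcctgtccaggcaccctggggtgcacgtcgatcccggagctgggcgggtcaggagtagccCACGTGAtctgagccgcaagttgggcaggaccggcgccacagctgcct
Mitf 3′-most start chr6:97991533-97991782 (plus strand): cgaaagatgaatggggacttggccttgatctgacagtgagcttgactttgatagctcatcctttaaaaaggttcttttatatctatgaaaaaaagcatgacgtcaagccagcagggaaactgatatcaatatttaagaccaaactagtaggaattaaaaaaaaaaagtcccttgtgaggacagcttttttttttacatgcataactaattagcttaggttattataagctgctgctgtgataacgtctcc
Ankrd1 chr19:36119845-36120094 (minus strand): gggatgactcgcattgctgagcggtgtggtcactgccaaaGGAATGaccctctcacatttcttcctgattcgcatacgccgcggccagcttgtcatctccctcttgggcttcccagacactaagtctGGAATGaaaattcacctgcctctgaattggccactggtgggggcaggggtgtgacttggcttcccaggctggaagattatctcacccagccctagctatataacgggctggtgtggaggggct
Socs3 chr11:117969367-117969616 (minus strand): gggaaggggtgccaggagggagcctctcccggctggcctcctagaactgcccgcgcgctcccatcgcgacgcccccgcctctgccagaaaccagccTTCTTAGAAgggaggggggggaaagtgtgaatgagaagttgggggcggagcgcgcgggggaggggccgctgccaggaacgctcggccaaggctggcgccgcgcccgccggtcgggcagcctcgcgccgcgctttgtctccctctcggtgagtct
Tyr, Dct, Mlph and the Mitf start were more open in line 112, and Ankrd1 and Socs3 were more open in line 73. The region overlapping the printed bases had a log2 fold change (line 112 over line 73) of 3.38 at Tyr, 5.399 at Dct, 2.43 at Mlph, 4.43 at Mitf, -3.94 at Ankrd1 and -0.95 at Socs3.

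The count totals were 3993473 and 2697546 for line 112 and 4367914 and 3945177 for line 73, so the second library of line 112 is the shallowest. Deposited peak lists hold 38743 and 20387 peaks for line 112 and 56497 and 56096 for line 73. Replicates differed by more than counting noise, with a chi-square per degree of freedom of 1.98 in line 112 and 1.35 in line 73, and none was dropped. Values are CPM, counts scaled to a common library size with TMM factors, and a count of 3 is worth between 0.708 and 0.949 CPM in these libraries. A region was called when edgeR's quasi-likelihood test gave a Benjamini-Hochberg adjusted p under 0.05.

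Of the tested regions 52.4% were called. Line 112 was higher in 34019 (25.4%) and lower in 36244 (27%). The median log2 fold change was 2.102 among the higher and -1.58 among the lower calls, and 54.6% of the higher and 33.4% of the lower calls differed at least 4-fold, which is 13.9% and 9.02% of all tested regions (3.21% and 4.32% at gene starts). The split between directions rests on the scaling. Of all calls 48.4% were higher in line 112 with TMM, 60.7% with total counts, 68.5% with TMM from gene starts and 33.8% with a regional offset over 10 Mb windows. These scalings moved the median log2 fold change of all regions by 0.29, 0.47 and -0.35 from its TMM value of 0.04. In line 112 a smaller share of the counts lay within 1 kb of a gene start, 35.2% and 34.1% against 40.9% and 40.6% in line 73.

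The calls depended on region strength in the same way. With TMM, the weakest 20% of regions had a median log2 fold change of 0.53 and the strongest 20% had -0.47. Loess offsets, which remove a trend with strength, left 0.10 and -0.06. At gene starts 10.5% of regions were called higher and 47.5% lower with TMM, but 14.8% and 24.3% with loess offsets. For the strongest start region of each of 14261 genes, 52.4% were called lower with TMM and 22.6% with loess offsets, and the medians were -0.52 and -0.08. Falls of about this size at a gene start are therefore given below with their loess value.

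**Figure D1:**
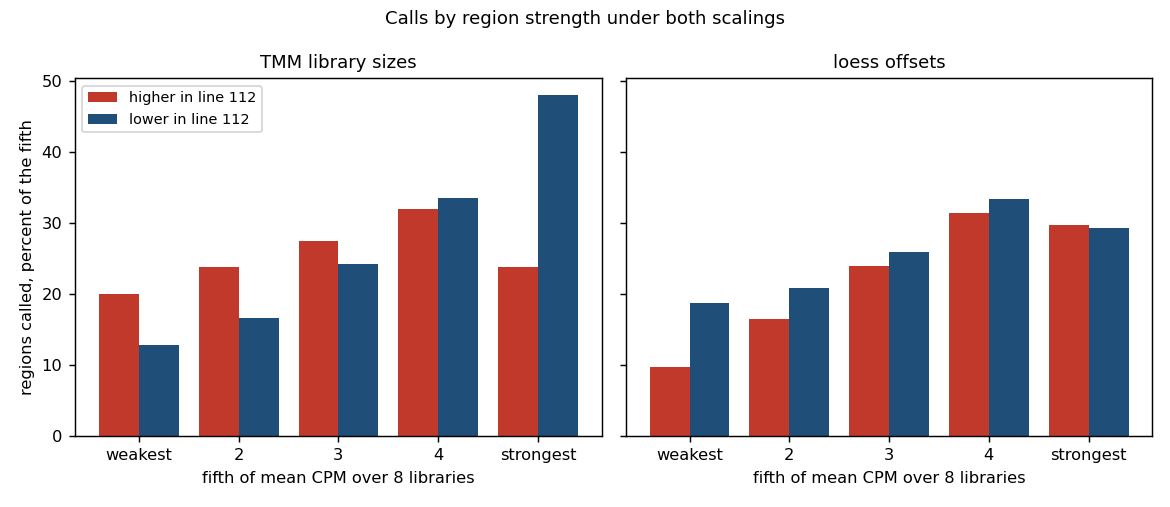
Share of regions called higher (red) or lower (blue) in line 112, in percent, in 5 equal classes of mean CPM over the 8 libraries, with TMM library sizes (left) and loess offsets (right). With TMM the lower calls reached 48.0% in the strongest class, and with loess offsets they were 29.3% there, against 29.7% higher.

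Away from gene starts the shares of both directions were closer. Regions more than 50 kb from a protein-coding gene were called higher in 29.6% and lower in 24.6%, and regions inside genes in 28.4% and 23.2%. With loess offsets the shares were 24.1% and 27.4% beyond 50 kb and 24.3% and 24.8% inside genes, so the order of the directions turned. Among the strongest 20%, 44.6% of regions more than 50 kb away were called higher, against 5.48% of those at gene starts. Of 4631 regions with an authors' peak in both libraries of line 112 and in neither of line 73, 4598 were called higher and 5.29% lay at gene starts. Of 24781 with the reverse pattern, 19998 were called lower. These numbers follow how many peaks were called per library. Over the 20000 strongest peaks of each library they were 5223 and 6972.

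The Stat3 start checks the labels only in part, since a deletion inside the gene need not close its promoter. The region at the start of Stat3 (chr11:100939208-100939818) had 30.9 and 26.6 CPM in line 112 and 38.5 and 27.8 CPM in line 73. The groups overlapped, and the log2 fold change of -0.20 (standard error 0.19, adjusted p 0.391, edgeR) changed sign with the scaling, to 0.26 with loess offsets. Of 7 tested regions in Stat3 the count table gave 1 called, inside the gene, with a log2 fold change of 1.19, and that call was lost with loess offsets (1.13, adjusted p 0.0543, edgeR). A closed start was thus not seen at Stat3 in line 112.

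The starts of Sox10, Pax3 and Foxd3, transcription factors of the neural crest and melanocyte lineage, were open in line 112 and low in line 73. The start of Sox10 had 22.4 and 22.5 CPM in line 112 and 4.06 and 2.75 CPM in line 73. The log2 fold change was 2.70 (standard error 0.31, adjusted p 2.32e-10, edgeR), and the groups did not overlap. A second region 901 bp from the Sox10 start differed by 2.89. Pax3, the partner of SOX10 at the melanocyte promoter of Mitf, had 42.7 and 30.4 CPM against 5.83 and 6.60 CPM, a log2 fold change of 2.57. Foxd3, a neural crest factor, had 54.8 and 48.4 CPM against 6.34 and 9.36 CPM, a log2 fold change of 2.73. In this list of 9 factors the strongest start region was called higher in 3 of 7 genes with one. It was lower in Sox9, Lef1 and Mitf, of which Sox9 alone was also called with loess offsets. Over the starts of all genes 8.86% were higher and 52.4% lower with TMM, and 15% and 22.6% with loess offsets. Sox9, a factor that is often opposed to SOX10 in melanoma, had 34.5 and 35.1 CPM in line 112 and 89.2 and 87.2 CPM in line 73, a log2 fold change of -1.34 and of -0.69 with loess offsets.

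Sox10, Pax3 and Foxd3 were also open in line 119, the other wild type. Sox10 had 13.7 and 14.9 CPM there, Pax3 32.9 and 29.0 CPM and Foxd3 61.7 and 67.7 CPM. Knockout line 113 had 19.8 and 21.6 CPM at Sox10. For these 3 factors line 73 was the lowest of the 4 lines.

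Mitf differed in opposite directions along its length. At the 3′-most, melanocyte start (chr6:97991085-97992009) line 112 had 17.7 and 11.4 CPM and line 73 had 0.760 and 0.550 CPM. The log2 fold change was 4.43 (standard error 0.47, adjusted p 3.17e-11, edgeR). Line 119 was as low as line 73, at 0.778 and 0.678 CPM, and line 113 was as high as line 112, at 19.6 and 16.7 CPM. At the first Mitf start, which serves broadly expressed isoforms, line 112 had 29.0 and 21.5 CPM and line 73 had 37.8 and 39.6 CPM. The log2 fold change there, -0.60, lost its call with loess offsets (-0.14, adjusted p 0.477), and without replicate 2 of line 112 (-0.34) or of line 73 (-0.61). Of 40 regions in Mitf, 18 were higher, 8 lower and 14 not called. Chromosome 6, which carries Mitf, had more signal in line 112 also in weak regions (below). With loess and regional offsets together the melanocyte start kept a log2 fold change of 4.07, and 14 regions of the gene were higher and 9 lower.

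**Figure D2:**
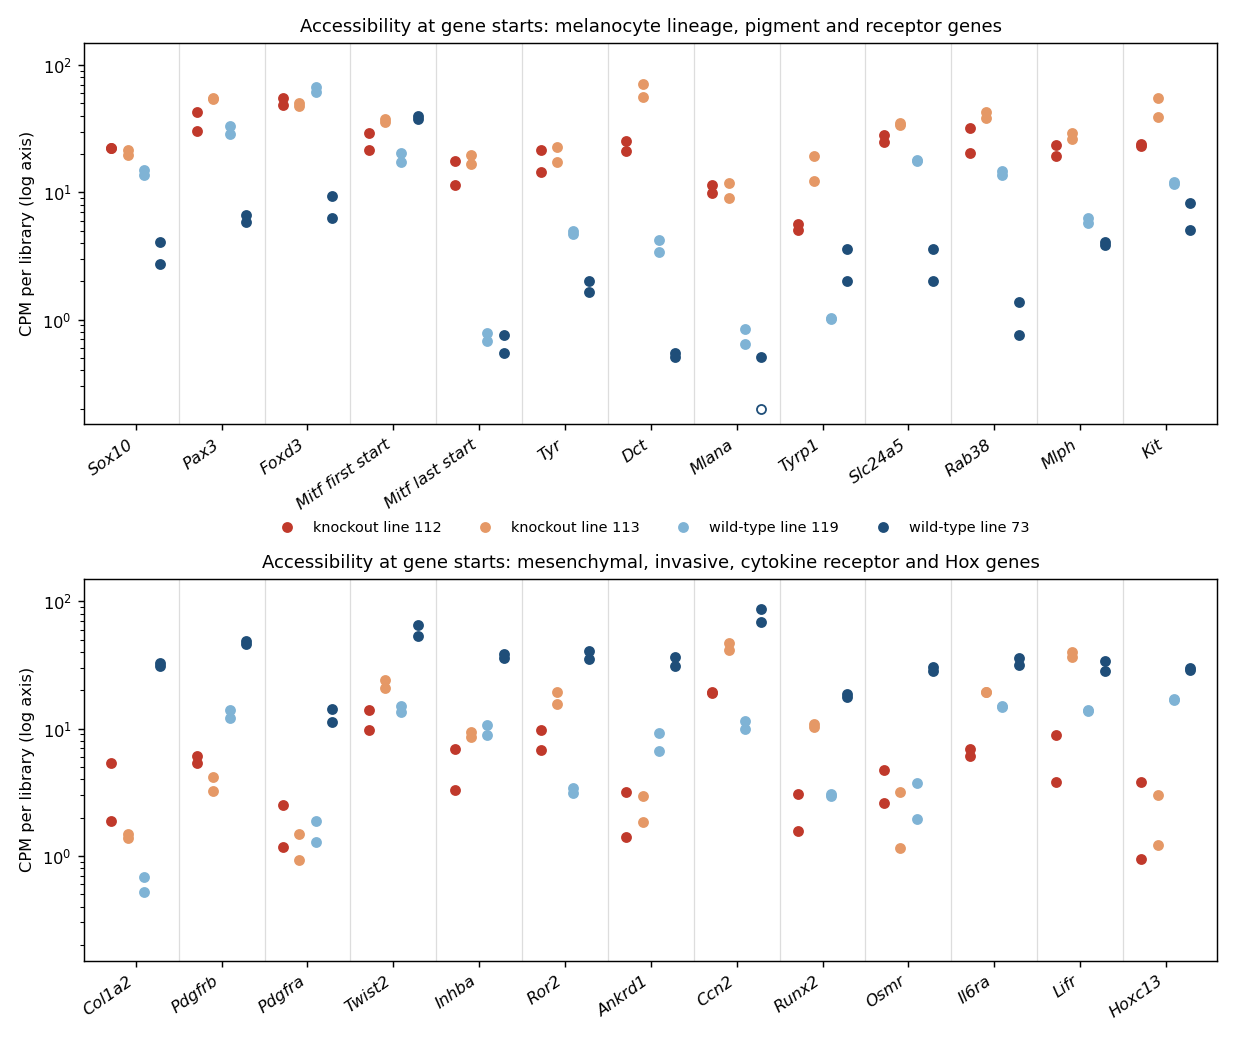
CPM of each library (points, log axis) in the 4 lines at the start regions of lineage and pigment genes (top) and of mesenchymal, invasive, cytokine receptor and Hox genes (bottom), with the single 0, at Mlana in line 73, drawn as an open point at the lower edge. Line 73 (dark blue) lies below line 112 (red) at Sox10, Tyr and Dct and above it at Col1a2, Osmr and Runx2, while the first Mitf start is open in all 4 lines.

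Most starts of the melanin synthesis genes were more open in line 112. Tyr, the enzyme that begins melanin synthesis, had 21.5 and 14.5 CPM in line 112 and 2.03 and 1.65 CPM in line 73 at its strongest start region (chr7:87493991-87495202). The log2 fold change was 3.29 (standard error 0.37, adjusted p 2.23e-10, edgeR). Dct, the dopachrome tautomerase of eumelanin synthesis, had 25.3 and 21.2 CPM against 0.507 and 0.550 CPM at its start. That was 2 counts in each library of line 73, and the log2 fold change was 5.399 (standard error 0.43, adjusted p 7.75e-15, edgeR). Mlana, a melanosome protein used as a melanoma marker, had 9.92 and 11.4 CPM against 0.507 and 0 CPM. With 2 counts in all in line 73 the ratio was 39.97, with a counting interval of 10.7 to 336 (95%, exact).

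In the list of melanin synthesis and melanosome structure, 7 of 10 genes with a start region were called higher with TMM and the same number with loess offsets. Besides Tyr, Dct and Mlana these were Slc24a5 (3.24), Slc45a2 (2.81), Gpr143 (2.61) and Trpm1 (2.56), given as log2 fold changes, which encode melanosome transporters and channels and a melanosome receptor. Pmel, the melanosome fibril protein, shares its start region with Rab5b and was lower by TMM (-0.87) and not called with loess offsets (-0.25), and its sign turned with loess and regional offsets together (0.10). Atp7a, a copper transporter, was called lower with TMM (-0.74) and not with loess offsets (-0.26). Tyrp1 had 5.67 and 5.06 CPM in line 112 and 2.03 and 3.58 CPM in line 73. Its log2 fold change of 0.95 did not pass the test (adjusted p 0.0534, edgeR), although the groups did not overlap. It passed in 8 of the 19 alternatives in which it was tested, among them the fit of the 4 libraries alone (1.18, adjusted p 0.0237) and the fit without replicate 2 of line 112 (1.09, adjusted p 0.0465). Over the 95 regions near these genes 59 (62.1%) were higher and 9 (9.47%) lower, against 25.4% and 27% of all regions. The median log2 fold change was 1.84. Of the starts of all genes 8.86% were higher with TMM and 15% with loess offsets.

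Melanosome transport genes did not move together. Rab38, which sorts pigment enzymes to melanosomes, had 31.9 and 20.6 CPM in line 112 and 0.760 and 1.38 CPM in line 73, a log2 fold change of 4.62. Mlph, the melanophilin that ties melanosomes to myosin, had 23.4 and 19.3 CPM against 4.06 and 3.85 CPM. Of the other 8 starts 7 were called lower with TMM, and 3 of these (Hps1, Rab32 and Dtnbp1) with loess offsets. Over the starts of all genes 52.4% and 22.6% were lower with these scalings. Rab32 moved from -0.94 to 0.00 with loess and regional offsets together. Hps1, a subunit of a complex in organelle biogenesis, had 18.2 and 11.4 CPM against 46.4 and 42.9 CPM. Of the 94 regions near the list 22.3% were higher and 36.2% lower, against 25.4% and 27% of all regions.

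Of 7 starts of melanocyte growth receptors and ligands 3, all receptors, were higher in line 112, 2, both ligands, were lower, and Met (0.03) and Erbb3 (-0.25) were not called with TMM, where Erbb3 turned to 0.31 and Met to a called 0.55 with loess offsets. The start of Kit had 24.1 and 23.1 CPM against 5.07 and 8.25 CPM, that of Mc1r, the melanocortin receptor, 22.4 and 16.4 CPM against 3.55 and 2.48 CPM, and that of the endothelin receptor Ednrb 7.56 and 12.7 CPM against 3.55 and 1.38 CPM. Their log2 fold changes were 1.83, 2.69 and 1.97. The ligand genes ran the other way. Hgf, which encodes the ligand of MET, had 0.708 and 2.21 CPM in line 112 and 13.7 and 17.1 CPM in line 73 (log2 fold change -3.47), and Kitl, the ligand of KIT, differed by -0.99 with TMM, -0.40 with loess offsets and 0.18 with loess and regional offsets together. Over the 85 regions of the list 45 (52.9%) were higher and 20 (23.5%) lower, against 25.4% and 27% of all regions. Of the starts of all genes 8.86% were higher and 52.4% lower with TMM.

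Genes of the dedifferentiated and invasive state were more open in line 73. Of 136 regions near 12 genes, 75 (55.1%) were lower in line 112 and 17 (12.5%) higher, against 27% and 25.4% of all regions. The median log2 fold change was -1.07. At the starts, 9 of 12 genes were lower with TMM and 6 with loess offsets (52.4% and 22.6% of the starts of all genes). These 6 were Inhba (-2.91), which encodes an activin subunit, the collagen cross-linking enzyme Lox (-2.32), the WNT5A receptor Ror2 (-2.21), Tgfbi (-2.16), Wnt5a itself (-2.09) and the growth factor receptor Egfr (-1.76). Inhba had 3.31 and 6.96 CPM in line 112 and 38.3 and 35.8 CPM in line 73. Axl and Ngfr, classical markers of that state, did not pass the test, with log2 fold changes of -0.47 (0.01 with TMM from gene starts) and 0.66. Nt5e, the surface enzyme CD73, was higher in line 112 (0.88).

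Some matrix genes and EMT factors were also more open in line 73, but regions near the EMT list were lower about as often as all regions. Col1a2, a chain of type I collagen, had 1.89 and 5.38 CPM in line 112 and 33.0 and 30.8 CPM in line 73, a log2 fold change of -3.21 (adjusted p 4.61e-12, edgeR). The start shared by Col4a1 and Col4a2, chains of basement membrane collagen, had 4.49 and 9.17 CPM against 51.7 and 42.1 CPM (-2.83). Among 22 matrix and integrin genes with a start region 14 were lower with TMM and 9 with loess offsets (52.4% and 22.6% of the starts of all genes), while Lama4 (2.27) and Itga4 (2.22), a laminin chain and an integrin of migrating cells, were higher. Of 10 EMT starts 6 were lower and 0 higher with TMM by edgeR, and 5 lower and 2 higher with loess offsets. Over the starts of all genes 52.4% were lower and 8.86% higher with TMM, and 22.6% and 15% with loess offsets. Of the 148 regions near the EMT genes 28.4% were lower, against 27% of all. Among them, Twist2 had 9.68 and 13.9 CPM against 65.7 and 53.7 CPM (-2.36), Snai1 was lower by -1.54 and Snai2 did not pass the test at 0.03, with scalings from -0.55 (regional) to 0.56 (loess). The cadherin gene Cdh2 was called lower with TMM (-0.74) and not with loess offsets (-0.10).

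Markers of other cell types were checked at their start regions because the lines came from lymph node. Of 9 fibroblast markers 8 were called lower in line 112 and Lum was higher with TMM. Over the starts of all genes 52.4% were lower and 8.86% higher with TMM. The summed level of the markers was 49.1 and 59.1 CPM in line 112 against 227 and 213 CPM in line 73. Lines 113 and 119 had sums from 55.7 to 70.4 CPM. Pdgfrb, a receptor of mesenchymal cells, had 6.14 and 5.38 CPM against 46.4 and 49.0 CPM. Line 73 thus had low levels at Sox10, Tyr, Dct and Mlana, markers of its labelled cell type, and high levels at fibroblast markers, and the part of a mixture of cells in this was not tested. In bulk libraries fewer open cells and less signal per cell cannot be told apart.

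Markers of other cell types were read in the same way. The summed start level of 6 lymphoid and myeloid markers was 54.1 and 66.7 CPM in line 112 and 54.8 and 53.9 CPM in line 73. Of 3 endothelial and 1 keratinocyte starts 0 were called by edgeR. Egr2, a transcription factor of Schwann cells, was called lower with TMM (-0.47) and not with loess offsets, where it turned to 0.22, and it also lost its call without replicate 2 of line 112 (-0.16) or replicate 1 of line 73 (-0.32).

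**Figure D3:**
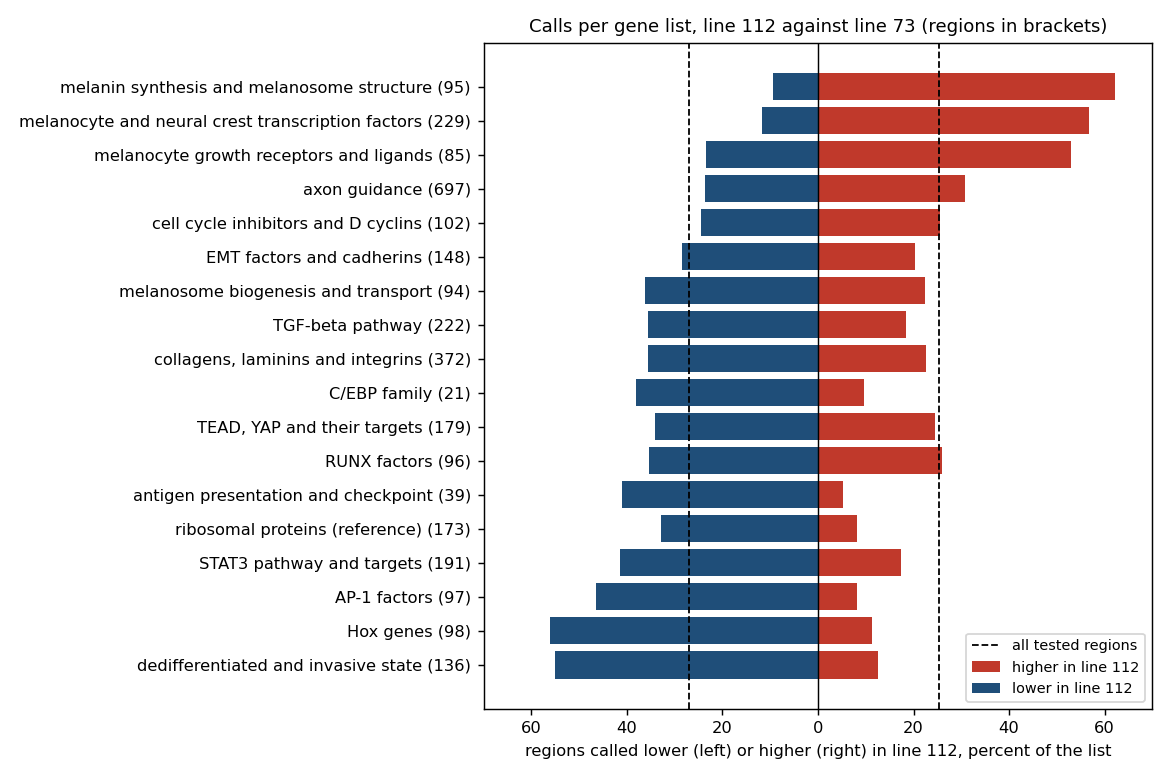
Share of the regions near each gene list called higher (right, red) or lower (left, blue) in line 112, in percent, with the number of regions in brackets and dashed lines at the shares of all tested regions. The 3 melanocyte lists on top reach 52.9% to 62.1% higher, and the Hox and the dedifferentiated lists at the bottom 56.1% and 55.1% lower. The transcription factor list holds 229 regions. Sox5 has 95 regions (63 higher) and Mitf 40 (18 higher), both on chromosome 6, where 47.7% of all regions were called higher. With loess and regional offsets together 76 regions of that list were higher and 43 lower.

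The STAT3 pathway genes were described next, since the series asks about STAT3 and C/EBP factors. Cytokine receptors of the IL-6 family made up the clear differences. Osmr, the oncostatin M receptor, had 2.60 and 4.74 CPM in line 112 and 28.1 and 30.3 CPM in line 73, a log2 fold change of -3.03 (standard error 0.33, adjusted p 5.03e-11, edgeR). Il6ra had 6.14 and 6.96 CPM against 35.7 and 31.9 CPM (-2.38), and Lifr, the receptor of leukemia inhibitory factor, 3.78 and 8.86 CPM against 33.7 and 28.3 CPM (-2.36). Their common partner Il6st differed by -0.66 with TMM, was not called with loess offsets (-0.10) and turned to 0.48 with loess and regional offsets together. Line 113 was not low at Lifr, with 36.4 and 40.01 CPM.

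Among the 18 genes of that list 12 starts were called lower and 1 higher with TMM, and 4 lower and 4 higher with loess offsets. Of the starts of all genes 52.4% and 22.6% were lower and 8.86% and 15% higher with these scalings. Socs3, a direct target of STAT3, had 24.3 and 20.9 CPM in line 112 and 44.4 and 43.7 CPM in line 73. Its log2 fold change was -0.95 (adjusted p 4.17e-05, edgeR) and -0.51 with loess offsets (adjusted p 0.00553). Line 113 (26.5 and 22.3 CPM) and line 119 (22.6 and 23.2 CPM) were both near line 112, so line 73 stood apart from the other 3. Bcl3, another target, was not called (-0.72, adjusted p 0.157, but -1.63 and called without replicate 2 of line 112), and the starts of Jak1, Jak2, Tyk2 and Myc were called lower with TMM and not with loess offsets. Ccnd1, which encodes cyclin D1, was higher in line 112 with TMM (0.46) and loess offsets (0.94) and turned to -0.12 with the regional offset.

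The C/EBP starts were lower in line 112 with TMM, where the median over the starts of all genes was -0.52. Cebpd had 25.3 and 24.0 CPM against 54.5 and 49.8 CPM, a log2 fold change of -1.08 and of -0.51 with loess offsets (adjusted p 0.00268). Cebpa differed by -0.87 and by -0.40 with loess offsets (adjusted p 0.0425). Cebpb, with 27.6 and 38.9 CPM against 54.2 and 49.5 CPM, differed by -0.66, and by -0.10 with loess offsets, where it lost its call. Over 21 alternatives Cebpb lost its call in 8 and kept it in 13. Among the 13 were the regional offset (-1.37) and loess and regional offsets together (-0.66). Of 5 starts 4 were lower with TMM and 3 with loess offsets, against 52.4% and 22.6% of all genes.

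Some AP-1, TEAD and RUNX genes were lower in line 112. Fosl2 (-1.45) and Atf3 (-1.39), AP-1 family members, were called under both scalings, while Jun (-0.66), Junb (-0.66) and Fosl1 (-0.45) were not called with loess offsets, where Jun and Fosl1 turned to 0.11 and 0.08. Ankrd1 had 1.42 and 3.16 CPM against 36.2 and 31.1 CPM, a log2 fold change of -3.94, and Ccn2, another YAP and TEAD target, 19.1 and 19.3 CPM against 87.2 and 68.8 CPM (-2.02). The starts of Yap1 and of the TEAD genes Tead1, Tead2, Tead3 and Tead4 were not called, at -0.38 to 0.18, and their signs changed with the scaling. Runx2, a bone and mesenchyme factor, had 3.07 and 1.58 CPM against 18.8 and 17.9 CPM (-2.91), and Runx3 was higher in line 112 (1.14), a call that was lost without replicate 2 of line 112 (0.91) or of line 73 (0.78) and with the regional offset (0.38). Of 97 AP-1 regions 46.4% were lower and 8.25% higher, of 179 TEAD regions 34.1% and 24.6%, and of 96 RUNX regions 35.4% and 26.0%, against 27% and 25.4% of all regions. Of 12 AP-1 starts 7 were lower with TMM, and 4 were lower and 3 higher with loess offsets. Over the starts of all genes 52.4% were lower with TMM, and 22.6% were lower and 15% higher with loess offsets.

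Hox genes, which record body position, were more open in line 73. Of 30 starts 19 were lower in line 112 with TMM and 18 with loess offsets, and 3 were higher. Over the starts of all genes 52.4% and 22.6% were lower and 8.86% and 15% higher with these scalings. Hoxc13 had 0.945 and 3.80 CPM against 29.9 and 28.9 CPM (-3.73), Hoxc10 5.43 and 8.54 CPM against 49.2 and 36.9 CPM (-2.66), and Hoxb6 differed by -2.79. The higher starts were Hoxa5 (1.93), Hoxd13 (1.79) and Hoxd11 (1.42). Over the 98 regions of the list 55 (56.1%) were lower and 11 (11.2%) higher, against 27% and 25.4% of all regions. The median log2 fold change was -1.03.

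Other lists were mixed. Of 13 TGF-beta pathway starts 10 were lower with TMM and 6 with loess offsets (52.4% and 22.6% of the starts of all genes), led by the ligand Tgfb2 (-2.29) and the receptor Tgfbr2 (-1.39). Skil, a repressor of SMAD signalling, differed by -1.36 but lies in a stretch of chromosome 3 with less signal in line 112, and its sign turned with loess and regional offsets together (0.37). Antigen presentation genes were lower at 8 of 10 starts with TMM and 6 with loess offsets. Among them were the immunoproteasome gene Psmb8 (-1.54, and -0.86 and not called without replicate 1 of line 112) and Nlrc5 (-1.05), the activator of MHC class I genes. Nlrc5 lost its call with TMM from gene starts (-0.58, adjusted p 0.0976, edgeR) and over regions with a peak of either line (-0.58). It also lost it with a replicate block over the 4 libraries (-0.80). Tap1 and Psmb9 share a region (-1.10).

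Of the cell cycle genes, Cdkn1a, which encodes the inhibitor p21, had 12.3 and 19.9 CPM against 56.5 and 42.4 CPM (-1.65). Cdkn2a, the locus of INK4A and ARF, had 30.9 and 20.2 CPM against 22.3 and 20.6 CPM at its first start. That region was not called (0.27, adjusted p 0.262) with TMM, was higher with loess offsets (0.79, adjusted p 7.84e-05), and turned to -0.20 with a regional offset. Without replicate 1 of line 112 it was -0.13, and without replicate 2 it was 0.60 and called. Its second start was lower with TMM (-0.88) and loess offsets (-0.49), and not called with TMM from gene starts (-0.41, adjusted p 0.0744, edgeR). Overlapping genes and antisense transcripts cannot be assigned in ATAC-seq, which carries no strand.

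Axon guidance genes differed in both directions. Of 28 starts 16 were lower and 4 higher with TMM, and 12 lower and 8 higher with loess offsets. Over all genes 52.4% of starts were lower and 8.86% higher with TMM, and 22.6% and 15% with loess offsets. Epha5, an ephrin receptor, had 33.5 and 18.7 CPM against 2.03 and 1.93 CPM (3.73), and Dcc, the netrin receptor, differed by 2.61. Sema3d, Slit2 and Slit3, which encode secreted guidance cues, were lower by -3.19, -2.72 and -2.30. As a reference, 39 of 72 ribosomal protein starts were lower with TMM and 11 with loess offsets, with medians of -0.53 and -0.09.

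By size alone, the gene starts with the largest rise in line 112, among those with 10 CPM or more in both of its libraries, were Dct, Cdh19 (5.04), Erp27 (4.97), Fhit (4.83), Rab38, Enpp5 (4.55), Dok5 (4.54) and Mitf. Cdh19, a cadherin of Schwann cell precursors and melanocytes, had 23.1 and 12.7 CPM against 0 and 1.10 CPM. Of these 8, Dct and Mitf were also low in line 119, at 3.37 and 4.24 CPM and at 0.778 and 0.678 CPM, and the other 6 had 7.39 CPM or more there. The largest falls were at Ddx3y, Eif2s3y and Uty on chromosome Y, where line 112 had 0 counts, and at Lhx8 (-4.81), Ctla2a (-4.32), Ctla2b (-4.27), Map9 (-4.26) and Ptchd4 (-4.20). The level at Ddx3y was at least 42.8-fold lower in line 112, taking 3 counts over its libraries as the limit. Ctla2a and Ctla2b are near-identical copies whose reads the mapping could split. Lhx8, a homeobox factor of the jaw and forebrain, had 0.945 and 0.949 CPM against 29.2 and 25.3 CPM, and lines 113 and 119 had 2.07 to 2.88 CPM.

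The smallest p-values fell on regions away from starts in line 112. These lay inside Mical3, Pkhd1 and Dbi and near Kcna6, with log2 fold changes of 5.402, 4.74, 4.64 and 4.48. The region in Pkhd1 had 77.5 and 57.2 CPM against 2.53 and 2.48 CPM, and it was open in lines 113 and 119 too, at 44.3 to 101.4 CPM. In the other direction they lay near Cd93 (-4.41) and Senp1 (-5.81) and at the starts of Xkr5 (-3.48) and Tagln2 (-3.08), the last of which encodes an actin-binding protein of the transgelin family.

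Counted by gene, Sox5 had most higher calls (63 of 95 regions), followed by Cntnap2 (49 of 65), Pde1c (41 of 65), Aff3 (39 of 55), Snd1 (37 of 61) and Pdzrn3 (36 of 43). All of these but Aff3 lie on chromosome 6. With loess and regional offsets together the higher calls were 28, 24, 17, 20, 14 and 24 and the lower calls 23, 5, 16, 3, 19 and 1, so that in Snd1 the balance turned (median log2 fold change -0.08). The most lower calls were at Elmo1 (29 of 52), Arhgap26 (28 of 77), Pde4d (28 of 96), Mast4 (27 of 42), Mecom (27 of 50) and Ank3 (26 of 55). Their higher calls were 1, 16, 19, 0, 5 and 5. Of all regions 27% were lower and 25.4% higher. All of these genes but Arhgap26 lie on chromosomes 3, 10 and 13, where weak regions had less signal in line 112 (below). With both offsets Elmo1, Arhgap26, Mecom and Ank3 had 23, 26, 19 and 23 lower and 4, 15, 9 and 8 higher calls. Mast4, a kinase gene, had 0 higher calls by edgeR, and 26 lower calls with both offsets. In Pde4d the balance turned with both offsets, to 26 higher and 22 lower calls.

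Weak regions give a view of DNA dose, because background insertions follow the number of copies. In the 67034 weaker regions by mean CPM the median log2 fold change was 0.39. Chromosome 6 stood 0.84 above that and chromosomes 3, 10, 13 and 15 differed from it by -0.51, -0.50, -0.45 and -0.43. On chromosome 6, 47.7% of regions were called higher and 13.4% lower. Of 268 windows of 10 Mb, 8 lay more than 1 log2 unit above the median of weak regions, 5 of them on chromosome 6, and 4 lay more than 1 below it. The highest was at 70 to 80 Mb of chromosome 4 (1.37), and the lowest were at 10 to 50 Mb of chromosome 3, from -1.19 to -1.04. Copy number itself was not measured. Sox10, Pax3, Foxd3, Tyr and Dct lie on chromosomes 15, 1, 4, 7 and 14 and kept log2 fold changes of 3.07, 2.74, 2.65, 2.97 and 5.05 with loess and regional offsets together.

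**Figure D4:**
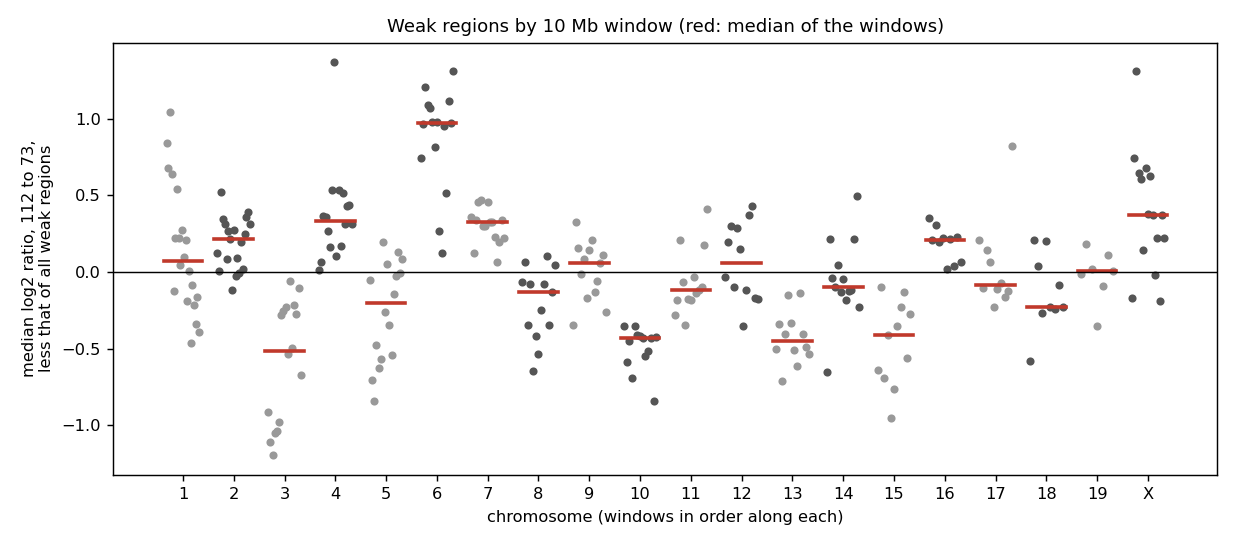
Median log2 ratio of line 112 to line 73 over weak regions in each 10 Mb window (points, in order along each chromosome), less that of all weak regions, with the median of the windows in red. Of the 15 windows of chromosome 6, 5 lie above 1 and the lowest is at 0.13, and the first windows of chromosome 3 lie near -1.

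Runs of regions with no counts were looked for as well. In line 112, 30 tested regions had 0 counts in both libraries while both libraries of line 73 had counts, and 9 of them formed a run on chromosome Y at Ddx3y, Eif2s3y, Kdm5d and Uty. In line 73, 326 regions were at 0, and the longest run was 3 regions. Line 113 also had 0 counts at Ddx3y, Eif2s3y and Uty, and line 119 had 8.04 to 12.8 CPM. The signal at these genes thus follows the genotype label in all 4 lines, and for them the sex of the animals or a loss of Y and the genotype cannot be told apart here. Of all 23 tested regions on chromosome Y 11 were called higher and 9 lower in line 112. In 113 against 119 these were 11 and 10. Whether the counts outside that run come from chromosome Y was not tested.

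The other pair of knockout and wild type, 113 against 119, was used to see which differences of 112 against 73 recur in libraries that were not part of it. In that pair 31% of regions were higher and 30.1% lower in the knockout line. Of the regions higher in line 112, 51.2% were also higher in line 113 and 16.5% were lower there, and they made up 41.8% of its higher calls. Of the regions lower in line 112, 38.7% were also lower in line 113 and 22.2% were higher, and they made up 34.7% of its lower calls. These regions were chosen for the difference between lines 112 and 73. At the higher calls the median levels were 5.52 CPM (line 112), 6.04 CPM (113), 3.57 CPM (119) and 1.19 CPM (73), and at the lower calls 3.27, 2.65, 6.46 and 12.2 CPM.

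**Figure D5:**
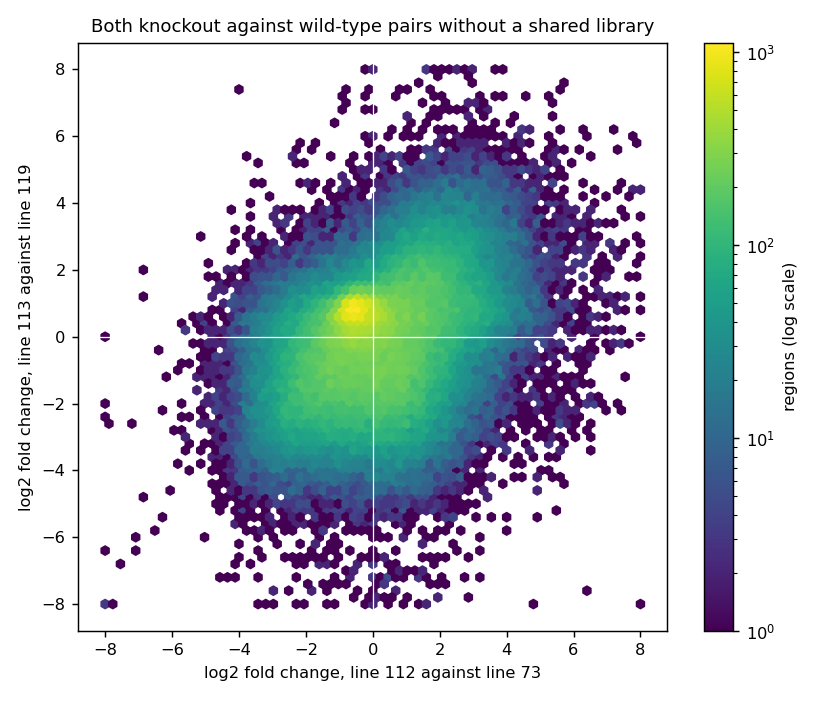
Log2 fold changes of line 112 against 73 (horizontal) and of line 113 against 119 (vertical) over all tested regions, as hexagons coloured by the number of regions on a log scale, with values beyond 8 drawn at the edge. All 4 quadrants are filled, and the densest spot lies close to the medians of regions at gene starts, which were -0.49 in 112 against 73 and 0.73 in 113 against 119.

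The same genes were read in both pairs. Dct, Mlana, Tyr, Mlph and the melanocyte start of Mitf were higher in the knockout line of both pairs, with log2 fold changes in 113 against 119 of 4.07, 3.78, 2.05, 2.21 and 4.58. Sox10 (0.53), Slc24a5 (0.96) and Rab38 (1.51) were called in the same direction there with smaller values. Foxd3 differed by -0.41. On the other side, 18 of the 136 regions of the dedifferentiated list were higher and 67 lower in 113 against 119. Their median log2 fold change was -0.87, and of all regions 31% were higher and 30.1% lower. Single starts varied. Osmr, Inhba, Twist1 and Col1a2 were not called in 113 against 119, at -0.35, -0.13, -0.01 and 1.24. Runx2 (1.80), Ccn2 (2.04), Ror2 (2.43) and Lifr (1.46) were higher in line 113. Tgfbi (-2.76), Col5a2 (-4.13), Pdgfrb (-1.80) and Hoxc13 (-2.98) were lower in both knockout lines than in their wild types. The Hox list as a whole ran the other way in 113 against 119, with 31 of 98 regions higher and 13 lower. Its median log2 fold change there was 0.51. An interaction term, the difference between the effects of the pairs, was called at 43.9% of all regions and at 77.7% of the strongest starts of all genes, and was below 0 at 71.5% of those starts.

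Promoter letters were compared over 12948 gene starts with a tested region, of which 292 were at least 4-fold higher and 415 at least 4-fold lower in line 112. SOX letters (ACAATG or AACAAT, both strands) were in the 250 bases of 17.5% of the higher starts, 9.64% of the lower and 8.89% of all. AP-1 letters (TGACTCA, or TGAGTCA on the other strand) were in 4.79%, 8.67% and 3.36%. TEAD letters were in 15.8%, 12.0% and 10.4%, so they were not more frequent in the lower starts, to which Ankrd1 belongs, than in the higher. The C/EBP letters TTGCNNAA were in 6.85%, 9.64% and 7.04% and the RUNX letters TGTGGT in 10.6%, 13.7% and 10.1%. The ETS letters CCGGAA were in 7.19%, 7.23% and 21.6%. MITF E-boxes were in 6.85%, 3.86% and 6.19%, and the STAT letters in 6.16%, 4.58% and 5.56%. The median GC content was 57%, 55.6% and 60.4%, so the sets also differ in base composition. Among melanin and melanosome transport genes called higher, Mlana, Slc45a2, Gpr143 and Rab38 were not among the promoters searched. Of those searched, Tyr, Dct, Slc24a5 and Mlph hold the E-box and Trpm1 does not. Among genes not called higher it is also at Tyrp1, Atp7a and Hps1. These are letters in a window, not measured binding.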

How the data were processed

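The 8 libraries are 2 each of lines 112, 113, 119 and 73. Per the labels, each reaction used 50000 cells. The deposited table gives raw counts per region. Whether it counts reads, fragments or cuts, and how duplicates and the Tn5 shift were treated, is not given in the sources used here. The deposited peak lists give a score, a fold enrichment, a −log10 p and a −log10 q per peak, called by the authors for each library. The submitters' processing notes name Bowtie2 2.2.4, Picard 1.118, MACS2 2.1.1.20160309 and the build GRCm38 (mm10). The authors' values were used only to rank and overlap peaks (bedtools 2.31.1, 1 bp).

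The counts of all 8 libraries were filtered (edgeR 4.0.16 in R 4.3.3, a minimum count of 10 and a minimum total of 15), scaled with TMM and fitted with 1 mean per line by the robust quasi-likelihood method. Line 112 was contrasted with line 73, and p-values were adjusted over all 134068 regions by Benjamini and Hochberg, with calls at 0.05. Residual degrees of freedom were 4. A region was placed at a gene start within 1 kb of a protein-coding start in RefSeq, or of either gene end for the 4392 of 21883 genes without a listed start, and otherwise near the nearest gene within 50 kb. Loess offsets remove a trend of log2 ratio with strength. Regional offsets take the median of each 10 Mb window over regions at or below the median strength, and remove it from all regions of the window. Counting intervals are exact and cover counting error only. The fit was tested on simulated data.

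The members and gene lists were chosen with earlier results of these data known. Named genes are 13 chosen whatever their values, the 8 starts with the largest change each way at 10 CPM or more, the 6 genes with most calls each way, the 4 smallest p-values each way and up to 4 called starts per list. Other list members were named after their values were seen. Alternatives were other scalings and filters, DESeq2 1.42.0, limma-voom 3.58.1, a replicate block, thinned counts and leaving out each library. Results for a few marker genes are not reported here.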

Additional observations from a re-analysis of the deposited data

Results flagged for a closer look

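The effect of the knockout label was compared between the pairs with an interaction term, (112 minus 73) minus (113 minus 119), on the log2 scale with edgeR's quasi-likelihood test and adjustment over all regions. It was called at 10 of the 13 gene starts named whatever their values, about the share among the strongest starts of all genes (77.7%), of which 71.5% were below 0, and at 43.9% of all regions. The Stat3 start differed by -1.28 (adjusted p 0.000127), the first Mitf start by -1.56 (adjusted p 5.5e-06) and Cdkn2a by -1.03 (adjusted p 0.0012). Among the pigment genes Tyr differed by 1.24 (adjusted p 0.0418), so its rise was larger in 112 against 73, while Tyrp1 (-2.95) and Pmel (-1.85) had the larger values in the other pair, with log2 fold changes there of 3.903 and 0.98. Mlana did not pass the interaction test, at 1.41 (adjusted p 0.263), and Dct passed it at neither of its start regions given here. Its strongest start region (chr14:118050464-118051849), with 3.29 in 112 against 73 and 4.26 in 113 against 119, gave -0.97 (adjusted p 0.134). The Dct start region described above (chr14:118052215-118052856), with 5.399 and 4.07, gave 1.33 (adjusted p 0.101). The C/EBP starts differed by -1.04 (Cebpa), -1.42 (Cebpb) and -1.25 (Cebpd), and Socs3 by -1.05. At these 4 genes 113 against 119 gave 0.17, 0.76, 0.17 and 0.10. Gene starts as a class moved in opposite directions in the pairs, with medians of -0.49 and 0.73, and a call below 0 at a start is therefore nothing particular to these genes.

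Peaks on scaffolds outside the count table numbered 37 and 39 in line 112, a mean of 38, against 31 and 27 in line 73. Lines 113 and 119 had 33 or 34. Mitochondrial peaks numbered 6 and 7 in line 112 and 8 and 6 in line 73.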

How the results depend on the processing

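Each genotype is 1 line here, the deepest of its 4 libraries holds 4367914 counts, and weak regions rest on few counts. Of 105 named regions 4 were not called, and of the others 70 kept their call in each of the 19 to 21 alternatives in which they were tested, 31 lost it in at least 1 and 4 changed sign in at least 1. Most calls were lost against a fold of 2 (30) and with loess and regional offsets together (12).

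The counts of calls, 34019 higher and 36244 lower, became 22566 higher with DESeq2 (25056 lower), 18816 and 15979 against a fold of 2, 7240 and 6609 with 50 counts or more on average, where 24137 regions were tested, and 20291 and 21603 over regions with a peak of either line. The lower calls were 22147 with TMM from gene starts. Leaving out 1 library gave 25846 to 31537 higher and 30394 to 33106 lower calls. Peaks in both libraries of line 112 and neither of line 73 covered 1375 regions when at least 50% of the region had to overlap, and the reverse pattern 12077. With the 20000 strongest peaks of each library the reverse pattern covered 6972.

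The replicate numbers did not pair the libraries, with a correlation of -0.037 between the deviations of same-numbered libraries of lines 112 and 73. With the number as a replicate block 33680 regions were higher and 35840 lower over 8 libraries, and 32033 and 24971 over the 4 libraries, against 32910 and 26573 over those 4 with no block.

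Of the list medians less the median of all regions, melanin synthesis moved from 1.79 to 2.43 within 1 kb of a gene, 2.201 over the 4 libraries, 2.202 with their replicate block, 1.43 with both offsets, 2.94 with 50 counts on average, 3.13 over peaks and 2.25 thinned. Lineage factors moved from 1.40 to 1.71 over the 4 libraries, 1.72 with their replicate block, 1.30 with loess offsets, 1.02 with the regional offset, 0.63 with both, 1.31 without chromosome 6, 1.26 with no filter, 2.93 with 50 counts, 1.60 over peaks and 1.56 thinned. The dedifferentiated list moved from -1.11 to -0.89 within 1 kb, -1.02 within 100 kb, -1.20 over the 4 libraries with and without the block, -0.93 with both offsets, -0.80 with 50 counts and -1.22 thinned. Leaving out 1 library gave 1.55 to 1.86, 1.23 to 1.502 and -1.25 to -1.10. All 3 kept their direction in every alternative.

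The sign changed at 6 named starts. Stat3 gave 0.038 over the 4 libraries, 0.043 with their block, 0.093 with total counts, 0.28 with TMM from gene starts, 0.26 with loess, 0.15 with both offsets, 0.23 with 50 counts, 0.27 over peaks and from -0.46 (without replicate 2 of line 73) to 0.014 (without its replicate 1) when a library was left out. Cdkn2a gave -0.20 with the regional offset and from -0.13 (without replicate 1 of line 112) to 0.60 (without its replicate 2) when a library was left out. Egr2 gave 0.011 with TMM from gene starts, 0.22 with loess, 0.65 with both offsets and 0.0052 over peaks. Pmel, Cdk4 and Skil gave 0.10, 0.16 and 0.37 with both offsets. The cause of these changes was not tested. The alternatives with both offsets and without chromosome 6 were added after the data were seen.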
